A study of Caenorhabditis elegans with 2 samples.

Results

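The 737 peaks described here are binding sites of CEH-82 on the 5 autosomes of Caenorhabditis elegans that lie upstream of exactly 1 protein-coding gene, at some distance from its start. They were taken from the 3913 peaks of the authors' optimal list on the assembly ce11. A peak was taken when its summit fell inside the promoter window of exactly 1 protein-coding gene, reaching from 1000 bp before to 200 bp after any transcript 5′ end, and lay more than 200 bp from the nearest 5′ end of that gene. No measured value entered this choice beyond the position of the summit. The members made up 18.8% of all optimal peaks and 22.9% of the 3214 on autosomes. The other autosomal peaks were 592 single-gene peaks with a summit within 200 bp of the gene's 5′ end (called proximal below), 784 in the windows of several genes and 1101 in no protein-coding window.

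CEH-82 is a homeobox protein, and the data are ChIP-seq peaks, from sequencing of immunoprecipitated chromatin, of first-stage (L1) larvae, taken whole and of both sexes. The strain, OP212, has the genotype unc-119(ed3) III; ddEx58, where unc-119(ed3) is a mutant allele on chromosome III and ddEx58 is the transgene for CEH-82 fused to a green fluorescent protein (eGFP). There was 1 group of 2 biological replicates with 1 control for both, and no untreated or untagged group was compared. The labels call the transgene an insertion, while ddEx58 is a name given to extrachromosomal arrays. Such arrays hold many copies of a transgene and can be lost from some cells, so the level and the cells of the tagged protein need not be those of the endogenous gene. Whole larvae were used, so a peak gives no cell type. Peaks give no direct check of the tag. No optimal peak lay within 10 kb of ceh-82 itself, on chromosome II, while 4 lay within 10 kb of unc-119, on chromosome III. None of the members belonged to either gene.

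Genes of this nematode are closely packed, and many lie head to tail on 1 strand, so the sequence upstream of one gene is often the sequence after the 3′ end of another. Most messages receive a spliced leader in trans, which removes the first stretch of the primary transcript. An annotated 5′ end is therefore often a splice site, and transcription starts further upstream. Homeodomains as a family bind short sequences with a TAAT core.

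Sequences at the summits of the strongest members are shown first, since the sequence content of these peaks is taken up below. Each runs for 201 bases, 5′ to 3′ on the strand of the gene, with the summit at base 101, and was read from the RefSeq genome of the assembly WBcel235, which is ce11. Capitals mark GAGAGA or its reverse complement TCTCTC. These are 3 of the strongest members that hold it.
K12H4.5, chrIII:8043879-8044079, plus strand: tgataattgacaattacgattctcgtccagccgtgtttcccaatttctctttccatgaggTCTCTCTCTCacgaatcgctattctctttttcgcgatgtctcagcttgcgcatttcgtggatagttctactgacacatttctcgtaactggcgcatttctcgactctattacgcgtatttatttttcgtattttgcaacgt
cox-5A, chrIII:12905100-12905300, plus strand: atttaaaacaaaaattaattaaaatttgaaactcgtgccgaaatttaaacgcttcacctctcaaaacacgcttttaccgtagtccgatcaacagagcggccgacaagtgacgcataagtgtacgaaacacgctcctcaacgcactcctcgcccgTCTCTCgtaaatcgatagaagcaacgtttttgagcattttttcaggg
snb-1, chrV:6656753-6656953, minus strand: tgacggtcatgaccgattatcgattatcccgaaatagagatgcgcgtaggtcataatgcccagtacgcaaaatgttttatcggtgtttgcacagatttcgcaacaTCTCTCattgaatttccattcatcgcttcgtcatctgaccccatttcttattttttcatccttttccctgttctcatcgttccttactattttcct

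The window at cox-5A also is that of the strongest member with TAATTA, a core bound by many homeodomains, which lies 82 bp from the summit. In all 3 windows the capitals read TCTCTC on the gene's strand. The 2 strongest members without GAGAGA on either strand follow, in lower case throughout.
rpl-35, chrIII:7854582-7854782, plus strand: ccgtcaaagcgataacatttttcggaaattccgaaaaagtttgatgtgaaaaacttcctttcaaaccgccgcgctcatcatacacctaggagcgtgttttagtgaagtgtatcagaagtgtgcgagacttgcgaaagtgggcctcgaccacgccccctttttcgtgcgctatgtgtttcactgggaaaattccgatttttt
eelo-2, chrIV:17249794-17249994, plus strand: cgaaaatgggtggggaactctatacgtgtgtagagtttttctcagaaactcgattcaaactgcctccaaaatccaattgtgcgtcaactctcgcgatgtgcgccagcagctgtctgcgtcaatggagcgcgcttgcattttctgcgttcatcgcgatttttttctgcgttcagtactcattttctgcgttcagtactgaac

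The last pair have long unbroken runs of alternating G and A, of 63 bases upstream of Y24D9A.6 and 22 bases, on the other strand, upstream of dmd-6.
Y24D9A.6, chrIV:4400977-4401177, minus strand: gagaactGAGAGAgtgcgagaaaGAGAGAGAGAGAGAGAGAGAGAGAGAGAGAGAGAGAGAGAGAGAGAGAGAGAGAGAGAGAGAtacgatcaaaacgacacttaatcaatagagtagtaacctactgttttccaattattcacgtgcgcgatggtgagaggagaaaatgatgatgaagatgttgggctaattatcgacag
dmd-6, chrIV:14622217-14622417, plus strand: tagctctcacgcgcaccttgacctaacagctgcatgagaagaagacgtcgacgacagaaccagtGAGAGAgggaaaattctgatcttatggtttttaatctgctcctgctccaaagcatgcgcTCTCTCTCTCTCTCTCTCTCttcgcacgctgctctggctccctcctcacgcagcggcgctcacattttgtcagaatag

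Signals at these 2 were moderate. The peak of Y24D9A.6 had 45.01, with 33.8 in replicate 1 and 4.58 in replicate 2, where it was outside the top list. That of dmd-6, a gene of the doublesex and mab-3 family, had 63.1, with 32.8 and 28.1. Over all members, 54 had such a run of 10 or more bases (7.33%, beside 0.814% of their flanks, 8.25% of all optimal peaks and 16.9% of peaks in no window).

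The strongest members stood at genes of varied function. The highest signal, the caller's value for a peak's strength, was that of the peak 274 bp upstream of rpl-3, a gene of the large ribosomal subunit. Its signal was 586 in the optimal list, 366 in the list of replicate 1 and 222 in that of replicate 2. The peak 452 bp upstream of rpl-35 (chrIII:7854594-7854791), also of the large subunit, had 475, with 296 and 182 in the replicates. The peak 237 bp upstream of eelo-2 (chrIV:17249793-17249995) had 461, with 286 and 179. Each list has its own scale, so values are not compared between lists. These 3 were the strongest members in both replicates.

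Next in signal stood K12H4.5 (342; replicates 217 and 128) and cox-5A, a subunit of cytochrome c oxidase (339; replicates 206 and 132). They were followed by dld-1, which encodes dihydrolipoamide dehydrogenase (295; 167 and 127). The peak 352 bp upstream of snb-1, the synaptobrevin of synaptic vesicles, was the strongest of chromosome V (289; 179 and 114). That of chromosome I was upstream of icd-2, the alpha subunit of the nascent polypeptide-associated complex (265; 168 and 92.9), and that of chromosome II upstream of vig-1, which encodes a component of the RNA interference machinery (247; 153 and 93.9). Among the 25 strongest members the one farthest from its gene was that of cbp-1, the CBP/p300 histone acetyltransferase, at 871 bp (249; 154 and 98.2). Over the 25 strongest members present in both replicates' top lists, the signal ranged from 213 to 586 and the distance from 209 to 871 bp. Genes of RNA metabolism among these 25 were cpsf-1 of the polyadenylation machinery (248), snr-4 of the spliceosome (225) and ntl-2 of the CCR4-NOT deadenylase (224).

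Other members of the 25 strongest stood before sco-1, which acts in cytochrome c oxidase assembly (230.4; replicates 139.7 and 88.5), pdhk-2, a pyruvate dehydrogenase kinase gene (213; 131 and 82.7), and pinn-1, a prolyl isomerase gene (231; 143 and 87.5). The summit before pinn-1 lay inside another gene, sqv-2. The gene egg-5, which acts in egg activation, had a member at 560 bp (253; 165 and 87.6). Also among the 25 were sqd-1 (243), W08E12.7 (233), Y59A8B.24 (230.1) and Y82E9BR.3 (216).

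Members were spread over the autosomes about evenly. Chromosome I held 175, II 135, III 154, IV 146 and V 127, which is between 21.4% and 23.6% of the optimal peaks of each. The median signal per chromosome ran from 51.4 on V to 63.3 on II. The rule took 18.8% of optimal peaks and 13.6% of the 13023 peaks of the pooled list that did not overlap an optimal peak (odds ratio 1.47, Fisher's exact test, two-sided, p = 5.64e-15). With windows of 2000 bp the odds ratio was 0.964 (Fisher's exact p = 0.393), so this difference held for the 1000 bp window and not for the wider one. By its label the pooled list holds both peaks and background. Those called weaker pooled peaks below therefore need not be binding sites. Peaks are not independent replicates here or below, and such p-values describe this set of peaks. Over the replicates' own top lists, each the 3913 strongest peaks of a replicate, the rule took 743.5 ± 0.707 peaks (SD, n = 2).

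Signal was lower than at peaks shared by several genes and higher than at peaks in no protein-coding window. The median over members was 59.0 (quartiles 40.5 and 90.7, lowest 27.7), against 55.2 at proximal peaks, 69.9 in windows of several genes and 49.2 in none. The strongest 978 peaks, 25% of the optimal list, held 26.6% of the members (196 of 737). The share was 38.8% for peaks of several genes (odds ratio 0.572, Fisher's exact test over 3 comparisons, Benjamini-Hochberg adjusted p = 7.23e-07) and 14.99% for peaks in no window (odds ratio 2.06, exact adjusted p = 3.67e-09). Proximal peaks had 25.2%, and the difference from members did not pass the threshold of 0.05 (odds ratio 1.08, exact adjusted p = 0.571). In the replicates' top lists the odds ratios were 0.584 ± 0.0194 against several genes, 1.85 ± 0.235 against none and 1.11 ± 0.0255 against proximal peaks (SD, n = 2).

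**Figure D1:**
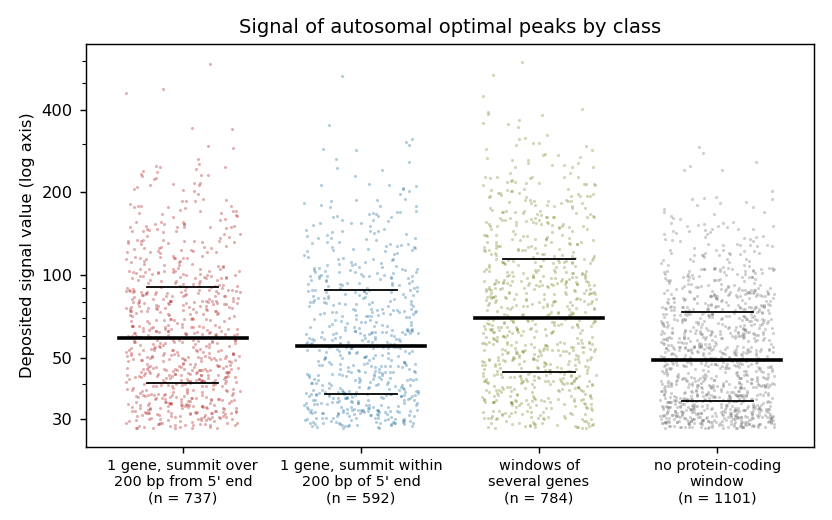
Deposited signal value (log axis) of each autosomal optimal peak, in 4 classes by the position of the summit. Points are peaks, thick lines medians and thin lines quartiles. The median of the 737 members, 59.0, lies between those of peaks in several windows (69.9) and in none (49.2).

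Most members were found in both replicates. Both top lists held an overlapping peak for 609 members (82.6%, exact 95% interval 79.7 to 85.3%), against 80.4% of all optimal peaks. The optimal list was made from both replicates, which in part fixes this share, and the interval covers counting error only. It was 88.0% for peaks of several genes (odds ratio 0.648, Fisher's exact test over 3 comparisons, adjusted p = 0.00538), 75.02% for peaks in no window (1.58, exact adjusted p = 0.00034) and 78.4% for proximal peaks (1.31, exact adjusted p = 0.0587). With a reciprocal overlap of 50% neither of the first 2 differences passed the threshold (exact adjusted p = 0.627 and 0.196). Among the 185 strongest members the share was 100%, and among the 184 weakest it was 40.8%. The median summit of the overlapping peak was 4 bp away in replicate 1 and 8 bp away in replicate 2. Across the 734 members that both full lists hold, signals of the replicates correlated with a Spearman rho of 0.765, given without a test.

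**Figure D2:**
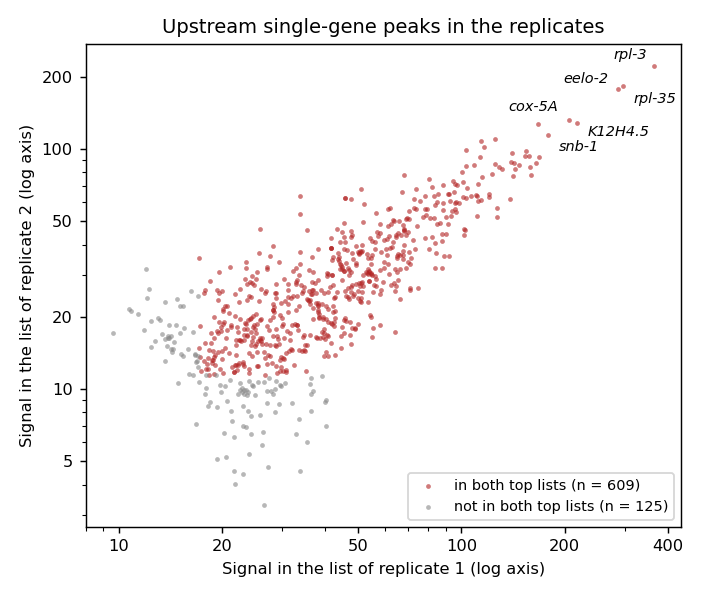
Signal of each member in the list of replicate 1 and of replicate 2 (both axes logarithmic, each list on its own scale). The 734 members that both full lists hold are shown. Red points are the 609 in both top lists and grey points the others. rpl-3 is highest in both replicates.

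Members outside a top list were mostly weak. Replicate 1 alone had 77 members in its top list and replicate 2 alone 48, while 3 were in neither. The strongest of these was the peak 601 bp upstream of eat-16 (signal 74.2), which encodes a regulator of G protein signalling. It had a signal of 39.8 in replicate 2 and no overlapping peak anywhere in the list of replicate 1. The peak upstream of the collagen gene col-63 (52.9) had 39.9 in replicate 1 and 8.80 in replicate 2. The weakest members were those of sca-1, adk-1 and sde-2, all at a signal of 27.7.

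Summits mostly lay before the gene, which the rule largely fixes. A summit more than 200 bp past its nearest 5′ end can be a member only before a further 5′ end of that gene. Of the 737 members, 717 were upstream of the nearest 5′ end and 20 downstream of it. The median distance was 395 bp (quartiles 272 and 640). Just inside the limit stood the peaks of K04B12.2 (201 bp, signal 72.3), calm-1 (202 bp, 41.8) and F48G7.4 (203 bp, 137), and just outside it those of K05C4.7 (200 bp, 95.1), trap-1 (199 bp, 72.1) and dcp-66 (199 bp, 37.0). The summit was outside protein-coding genes for 561 members (76.1%), inside an intron or exon of the own gene for 127 (17.2%) and inside another gene alone for 49 (6.65%). In coding exons there were 2 summits. Members inside the own gene had more annotated 5′ ends (median 4, against 1 for those outside genes) and a lower median signal (45.5 against 61.5). The rule in part fixes the first difference, since a gene with a single 5′ end cannot have a member inside it. At proximal peaks the median signal was 45.6 inside the own gene and 58.1 outside genes.

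The nearest gene on the far side of the summit mostly pointed the same way, which the rule in part fixes. It drops summits up to 1000 bp before the 5′ end of a second gene and sets no such limit for 3′ ends. The same holds for proximal peaks. Among the 561 members outside gene bodies, 341 (60.8%) faced the 3′ end of that neighbour and 220 faced a 5′ end. At proximal peaks outside gene bodies the share that faced a 3′ end was 65.0%. Of the 23 outside gene bodies among the 25 strongest members, 16 faced a 3′ end (69.6%). For icd-2 that neighbour was psf-3, which ended 114 bp from the summit, and for wwp-1, a ubiquitin ligase gene, it was icd-2 itself, at 288 bp.

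Members further from the gene were weaker and held the GA sequence more often. The median signal was 62.2 for the 245 peaks up to 300 bp away and 64.7 for the 131 up to 400 bp. It was 59.4 for the next 153, up to 600 bp, then 50.5 for the 117 up to 800 bp and 45.7 for the 91 up to 1000 bp. Across the 737 members the Spearman rho of distance and signal was -0.158, and -0.181 over the 561 outside gene bodies. GAGAGA within 100 bp of the summit went from 42.9% in the nearest group to 68.1% in the farthest. TAATTA went from 5.71% to 1.10%. These are descriptions across peaks, without a test.

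**Figure D3:**
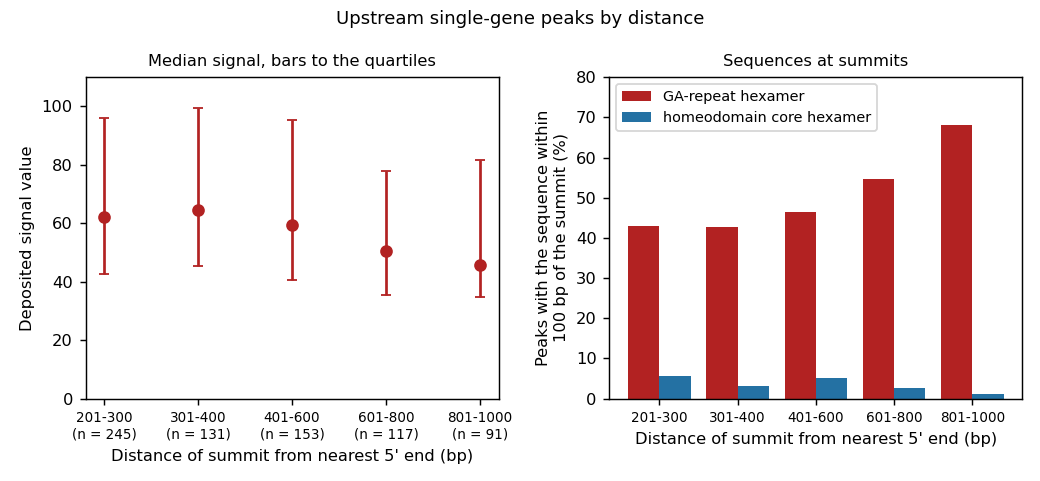
Members in 5 groups by distance of the summit from the nearest 5′ end (bp). Left, median signal with bars to the quartiles. Right, percent of members with the GA-repeat hexamer GAGAGA (red) or the homeodomain core hexamer TAATTA (blue) within 100 bp. The farthest group has the lowest median signal (45.7) and the highest share of GAGAGA (68.1%).

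GAGAGA was common at member summits, and TAATTA was rare. A sequence of 4 to 8 letters was counted when it stood on either strand within 100 bp of the summit, and compared with flanking stretches, from 300 to 400 bp on either side, that add up to equal length. GAGAGA was found at 358 of 737 members (48.6%) and in the flanks of 13.03%, a ratio of 3.73 (exact McNemar test over 12 sequences, adjusted p = 2.57e-47; replicates' top lists 3.59 ± 0.00974, SD, n = 2). Over all optimal peaks 47.5% held it, so the share at members was near that of the whole list. In 25633 windows of 201 bases centred 400 bp upstream of all autosomal protein-coding 5′ ends it stood in 10.97%. Weaker pooled peaks taken by the same rule held it in 24.6%. TAATTA was found at 30 members (4.07%) and in the flanks of 11.5%, a ratio of 0.353 (exact McNemar adjusted p = 2.16e-07; replicates 0.410 ± 0.0708, SD, n = 2). Over all optimal peaks 3.91% held TAATTA, and 10.9% of the upstream windows.

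Of the other 10 sequences, 4 were more frequent at member summits than in flanks by the same exact McNemar test. GCGCAG stood at 10.4% (ratio 4.53, exact adjusted p = 2.37e-11) and CACACA at 24.0% (ratio 2.27, exact adjusted p = 2.37e-11). The E-box CAGCTG, a sequence bound by basic helix-loop-helix proteins, stood at 7.19% (ratio 1.71, exact adjusted p = 0.0169), and TTTCGCGC, the core of sites bound by E2F proteins, at 3.12% (ratio 2.88, exact adjusted p = 0.0142). In the upstream windows the shares of these 4 were 2.35%, 8.74%, 3.25% and 0.878%. Over all optimal peaks they were 11.01%, 26.8%, 5.65% and 2.58%, so GCGCAG and CACACA were no more frequent at members than in the whole list. Less frequent than in flanks were TAAT (59.3%, ratio 0.695), TGATAA (7.19%, ratio 0.414), ATATAT (5.02%, ratio 0.529) and TTTTTT (51.8%, ratio 0.791). Over all optimal peaks these 4 stood at 59.6%, 6.64%, 5.16% and 52.1%, close to the shares at members. The E-box CACGTG (ratio 1.60, exact adjusted p = 0.0787) and TGACTCA (ratio 1.31, exact adjusted p = 0.572) did not pass the threshold. The call of CAGCTG was lost with a limit of 300 bp or windows of 500 bp, while CACGTG passed under 4 of the alternatives. TTTCGCGC missed the threshold with windows of 500 bp, in the stronger 1956 optimal peaks and within 50 bp of summits. TAATTA contains TAAT, and the other sequences do not contain each other. Sequence at the summit was richer in G and C, with a median of 43.8% over members against 35.3% in their flanks. The part of base composition in these ratios was not tested.

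The members differed in sequence from peaks of several genes and from peaks in no window. GAGAGA was at 27.6% of peaks of several genes (odds ratio 2.48, Fisher's exact test over 36 comparisons, adjusted p = 1.01e-15) and at 63.03% of peaks in no window (odds ratio 0.554, exact adjusted p = 8.52e-09). Proximal peaks held it at 41.6% (odds ratio 1.33, exact adjusted p = 0.0355). That last difference missed the threshold with a limit of 150 bp (odds ratio 1.08), in the stronger 1956 peaks (1.25), in the top list of replicate 2 (1.24) and within 50 bp of summits (1.17). Against proximal peaks the members also held TAAT less often (59.3% against 68.1%, odds ratio 0.683, exact adjusted p = 0.00396). The same was true of TTTTTT (51.8% against 61.0%, 0.689, exact adjusted p = 0.00344). CAGCTG was more frequent (7.19% against 4.05%, 1.83, exact adjusted p = 0.0491). With a limit of 150 bp, 0 of the 12 sequences passed against proximal peaks after adjustment and 1 had an unadjusted Fisher's exact p under 0.05. Peaks in no window had less TAATTA than members (1.45%, odds ratio 2.88, exact adjusted p = 0.00291) and more CACACA (34.1%, 0.612, exact adjusted p = 2.71e-05). Both calls were lost within 50 bp of summits, and that of TAATTA also with a limit of 300 bp and in the top list of replicate 2.

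GAGAGA gathered around the summit on both sides. In bins of 20 bp it was most frequent from 20 to 40 bp on the gene's side of the summit (10.3% of members) and from 20 to 40 bp on the far side (10.04%). More than 200 bp away no bin reached 2.5%. Where it was present, the nearest copy stood a median of 32 bp from the summit, against 28 bp at proximal peaks, and on the gene's side in 177 of 358 members. By signal, the 185 strongest members held it in 41.6%, and the next groups of 184 in 50.5%, 51.1% and 51.1%.

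**Figure D4:**
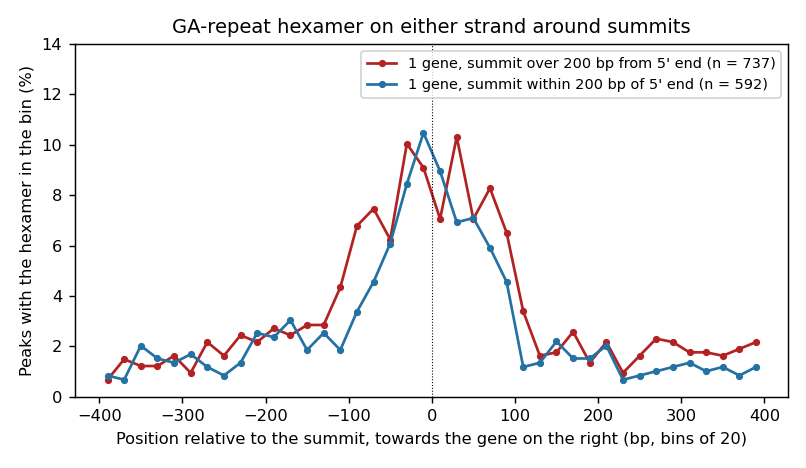
Percent of peaks with the GA-repeat hexamer GAGAGA on either strand in bins of 20 bp around the summit, turned so that the gene lies to the right. Red is the 737 members and blue the 592 proximal peaks. Both lines rise near the summit, to 10.3% and 10.5%.

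The strand of the GA sequence was uneven with respect to the gene, as it also was in upstream sequence at large. Since each member has 1 gene, the sequence can be read on the gene's strand. It read TCTCTC alone at 218 members, GAGAGA alone at 101 and both at 39, so 68.3% of those with 1 reading had TCTCTC (exact 95% interval 62.9 to 73.4%). An even split was tested by an exact binomial test (two-sided, p = 5.09e-11). The top lists of the replicates gave 67.3% and 68.5%. Proximal peaks gave 65.0%, weaker pooled peaks of the same rule 66.3% and the 25633 upstream windows 62.5%. Fisher's exact test, added after the data were seen, gave no difference past the threshold between members and these 3 (adjusted p = 0.578, 0.578 and 0.128). For the windows the odds ratio was 1.296, and the unadjusted exact p was 0.0428.

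The 737 members belonged to 713 genes, which is 4.14% of the 17242 autosomal protein-coding genes, and 3.4% had a proximal peak. There were 2 members at 20 genes and 3 at another 2, namely T24B8.3 and M01H9.3. At T24B8.3 the signals were 212, 83.6 and 34.5, and at M01H9.3 they were 48.9, 36.2 and 29.03. At eel-1, a HECT ubiquitin ligase gene, 2 members had 181 and 89.6, and at lgg-2, an autophagy gene, 141 and 107.6. Another summit within 200 bp of a 5′ end was found at 38 of the 713 genes (5.33%). A proximal peak as defined above was found at 33 of them (4.63%), beside the 3.4% of all autosomal genes. Of the 2814 autosomal genes with a summit in any window (called bound below), 25.3% had a member. Lists differ in how many of their genes are bound, so the share of bound genes with a member is given beside the 25.3%. Genes with several annotated 5′ ends have more windows: 51.8% of member genes had a single 5′ end, against 72.4% of all autosomal genes and 44.7% of genes with a proximal peak. This was not adjusted for in the counts of genes below. Of the 713 genes, 165 (23.1%) were in at least 1 of 27 gene lists made from gene names, and no list was given a set test.

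Cytosolic ribosomal protein genes stood mostly in shared windows. They had members about as often as all bound genes, and seldom had proximal peaks. Of 79 such genes 72 were bound, and 19 had a member (24.1%, beside 4.14% of all genes; 26.4% of those bound, near the 25.3% of all bound genes) and 2 a proximal peak (2.53%, beside 3.4%). Each replicate's top list also gave 19 with a member. A proximal peak was found at 586 of all 2814 bound genes, against 2 of the 72 here. Another 51 had their strongest summit in the windows of several genes. Over the 72 ribosomal protein genes with a summit, the median distance was 295 bp and 64 were over 200 bp away (88.9%). Over all 2814 genes with a summit the median was 222.5 bp and 54.3% were over 200 bp away. With a limit of 300 bp in place of 200 the count of genes with a member was 9, and with windows of 2000 bp it was 10.

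The ribosomal members lay from 238 to 654 bp upstream, with a median signal of 127. After rpl-3 and rpl-35 came rpl-41.2 (205; replicates 122 and 78.3), rps-4 (178; 114 and 61.4) and rps-21 (171; 94.7 and 73.9). The lowest first peaks were those of rps-8 (61.3; 42.3 and 19.1) and rla-0 (52.4; 31.6 and 17.2), where rla-0 encodes the stalk protein P0. At rps-24 a strong peak at 300 bp (169) was joined by a weak one at 654 bp (38.6), which was outside the top list of replicate 2. Of these 20 peaks, 19 were in both top lists and 9 held GAGAGA. Of the 19 outside gene bodies, 15 faced the 3′ end of the upstream neighbour, which the rule in part fixes. Translation factor genes had 7 of 40 with a member (17.5%) and 5 with a proximal peak. Of the 31 bound, 22.6% had a member. They were led by 3 subunits of initiation factor eIF3, eif-3.C (238), eif-3.B (132) and eif-3.J (121). Mitochondrial ribosomal protein genes, in contrast, had 3 of 70 with a member (4.29%) and 9 with a proximal peak (12.9%), which is 8.57% of the 35 bound with a member.

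Ubiquitin pathway genes had 12 of 68 (17.6%) with a member and 3 with a proximal peak (4.41%). Of the 30 bound, 40% had a member, and the replicates' top lists gave 12.5 ± 0.707 (SD, n = 2). Among the 12 were the conjugating enzymes ubc-3 (133; replicates 78.2 and 56.4) and ubc-7 (133; 83.2 and 51.6), the cullins cul-3 (91.3) and cul-4 (82.9), and the polyubiquitin gene ubq-1 (75.1). Membrane trafficking and vacuolar ATPase genes had 16 of 118 (13.6%; 28.1% of those bound), led by vps-60 of the endosomal sorting machinery (178; 127 and 52.03) and the Rab2 gene unc-108 (176; 110.2 and 64.6), and the stronger 1956 peaks gave 10. Respiratory chain genes had 6 of 47 (12.8%; 19.4% of those bound), with cox-5A, the cytochrome c1 gene cyc-1 (155) and cox-4 (111) the highest. Proteasome genes had 4 of 33 (12.1%; 14.8% of those bound). Splicing genes had 3 of 55 (5.45%, near the 4.14% of all genes; 9.09% of those bound). Cell cycle and replication genes had 4 of 62 (6.45%; 13.3% of those bound) and 9 with a proximal peak (14.5%), and the strongest of the 4 was pcn-1 (165), the replication clamp PCNA.

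Chromatin genes with a member numbered 12 of 79 (15.2%; 32.4% of those bound), at a median distance of 562.5 bp. Besides cbp-1 these were the histone methyltransferase gene set-4 (189; replicates 114.9 and 76.4), the remodeller chd-7 (122; 50.8 and 67.9), pbrm-1 of the PBAF complex (109), and rbr-2, an H3K4 demethylase gene (99.7). Both dpy-30 (51.4) and set-2 (50.5), which act in H3K4 methylation, had a member. Windows of 500 bp gave 7.

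Of 34 pan-neuronal and synaptic genes 9 had a member (26.5%; 45% of those bound) and 9 a proximal peak. After snb-1 they were led by rab-3, a vesicle GTPase gene (121; replicates 80.6 and 38.4), unc-11, the AP180 clathrin adaptor gene (115.6; 65.7 and 50.3), and rgef-1, a Ras exchange factor gene (102.7). With windows of 500 bp 5 were left, and with 2000 bp there were 17. Heterotrimeric G protein signalling genes had 10 of 53 with a member (18.9%; 55.6% of those bound) and 5 with a proximal peak (9.43%). The alpha subunit genes goa-1 (57.2) and gsa-1 (71.5), both beta subunit genes, gpb-1 (79.3) and gpb-2 (51.8), the regulator rgs-1 (88.5) and the protein kinase A gene kin-1 (51.1) were among the 10. In the stronger 1956 optimal peaks the count was 6. Of 13 heterochronic genes, which time larval cell fates, 5 had a member (38.5%; 71.4% of the 7 bound) and 2 a proximal peak. They were lin-66 (133), the Argonaute gene alg-2 (80.5), lin-28, an RNA-binding regulator of let-7 (51.2), dre-1 (34.4) and sea-2 (32.8). This count was 2 with windows of 500 bp and 2 in the stronger 1956 peaks.

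Genes for neuropeptides, ion channels and the cuticle were seldom bound at all. A summit in any window was found for 1.85%, 4.28% and 3.97% of them, and for 13.4% of germline genes. Over all autosomal protein-coding genes, 2814 of 17242 were bound. Among neuropeptide and insulin genes 1 had a member (0.926%), flp-23 with a signal of 45.5. Ion channel genes had 4 of 187 (2.14%), with unc-36, a calcium channel subunit gene, the highest (60.2). Cuticle collagen genes had 1 of 151 (0.662%) and germline genes 2 of 127 (1.57%). Proximal peaks were as scarce, at 0%, 1.07%, 0% and 0.787% of the 4 lists. Of the 2, 8, 6 and 17 genes bound in these lists, 50%, 50%, 16.7% and 11.8% had a member. Among transcription factors, bZIP and zinc finger genes had 10 of 86 (11.6%, and 47.6% of those bound). These included zip-2 (214), zfp-1 (202), the CREB gene crh-1 (87.8), the Nrf gene skn-1 (59.5) and jun-1 (35.6). Nuclear hormone receptors had 8 of 247 (3.24%, and 36.4% of those bound), led by nhr-49 (117), a regulator of lipid metabolism. Homeobox genes, the family of ceh-82, had 1 of 74 (1.35%, and 14.3% of the 7 bound) and 3 with a proximal peak. The 1 with a member was the Pbx homologue ceh-20, 793 bp away with a signal of 41.6 (replicates 21.2 and 18.2).

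Heat shock protein and chaperonin genes had 4 of 61 (6.56%, and 11.8% of those bound) and 6 with a proximal peak (9.84%). The cytosolic Hsp70 gene hsp-1 (168; replicates 96.998 and 70.6) and the J-domain gene dnj-9 (197; 108.9 and 86.004) were the highest. Body wall muscle genes had 6 of 47 (12.8%, and 54.5% of the 11 bound). The actin gene act-2 (102.7) and the myosin chaperone gene unc-45 (84.4) led them. With a limit of 300 bp 3 were left, and in the stronger 1956 peaks 2. Genes of the Wnt, Notch, EGF-Ras and TGF-beta pathways had 7 of 73 (9.59%, and 38.9% of those bound). The Nemo-like kinase gene lit-1 (78.1) and the beta-catenin genes wrm-1 (65.2) and sys-1 (43.3) were among them. Windows of 2000 bp gave 12 and the stronger 1956 peaks 2.

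T-box, GATA, Sox and forkhead factor genes had 3 of 37 (8.11%, and 100% of the 3 bound) and 0 with a proximal peak. The 3 were the FOXO gene daf-16 (75.3; replicates 46.7 and 24.2), fkh-7 (69.9) and egl-27 (31.5). Basic helix-loop-helix genes had 2 of 31 (6.45%, and 50% of the 4 bound), the TFEB homologue hlh-30 (81.6) and hlh-11 (47.4). Axon guidance and adhesion genes had 5 of 61 (8.2%, and 38.5% of those bound), at a median of 838 bp, with sax-2 the highest (90.3). Aminoacyl-tRNA synthetase genes had 2 of 32 (6.25%, and 14.3% of those bound), the alanyl enzyme aars-2 (60.7) and the lysyl enzyme kars-1 (43.05).

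**Figure D5:**
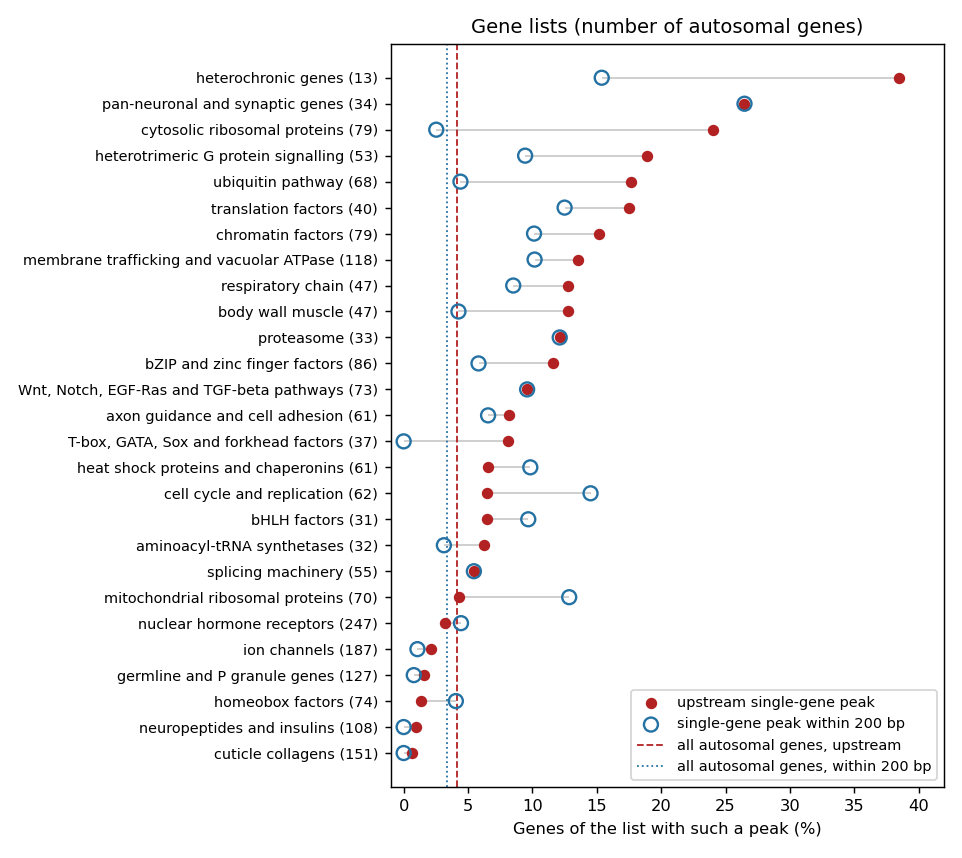
Percent of the autosomal genes of each list (number in brackets) with a member (filled red) or with a single-gene peak within 200 bp (open blue). Dashed and dotted lines give the shares of all autosomal genes, 4.14% and 3.4%. Ribosomal protein genes show a wide gap, with 24.1% against 2.53%. Of those bound, 26.4% had a member, near the 25.3% of all bound genes.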

How the data were processed

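Peak lists of both replicates, of the pooled replicates and the optimal list (irreproducible discovery rate) were used on ce11, where the authors deposited a signal value per peak, a −log10 q-value (ceiling 3.82 in the optimal list) and a summit. The labels name the antibody target as ceh-82 and the assay as against eGFP-ceh-82. Per the read-me files, both replicates share 1 control alignment. For aligner, peak caller and IDR threshold, none is given in the sources used here. Lists on ce10 were not used. The lists hold no read counts, so depth per sample is unknown, and 0 columns were left unmapped to a sample.

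Peaks were ranked by signal within a list. Genes came from Ensembl release 115 and sequence from the RefSeq genome (Python 3.11.15, pandas 2.3.3, NumPy 2.4.6, SciPy 1.17.1, matplotlib 3.10.9). Overlap meant at least 1 shared bp. Tests were two-sided, Benjamini-Hochberg adjusted within each family, with a threshold of 0.05. The steps were tested on simulated data. The rule for genes to name took the 25 strongest members in both top lists, the strongest per chromosome, up to 3 per gene list, the 5 genes with most members, the 3 peaks nearest the 200 bp limit on either side, the 3 weakest, and the 5 strongest outside a top list. Sequences leave out chromosome I, and some items are not reported here. Further members named within a list illustrate it and were chosen after their values were seen. The members, lists and tests were chosen with earlier results of these data known. The 12 alternatives cover the distance limit (150 and 300 bp), the window (500 and 2000 bp), the stronger 1956 peaks, each replicate alone, peak midpoints, a reciprocal overlap of 50%, other list lengths and a sequence window of 50 bp.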

Additional observations from a re-analysis of the deposited data

How the results depend on the processing

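No paired analysis was possible because there was 1 group. Of 137 recomputed values that answer a comparison, all but 25 kept their direction and side of the threshold (for counts, stayed within 1.5 times), as did 262 of 347 others. The number of members ranged from 392, in the stronger 1956 peaks, to 916. With windows of 2000 bp the odds ratio of the rule against weaker pooled peaks turned to 0.964 (Fisher's exact p = 0.393). For the strongest 978 peaks, the odds ratio against proximal peaks, past the threshold in no setting, turned to 0.908 with a limit of 300 bp and 0.898 with windows of 2000 bp. For presence in both top lists, the odds ratio against proximal peaks was 0.936 with a limit of 300 bp, 1.55 with windows of 500 bp (exact adjusted p = 0.00629), 0 in the stronger 1956 peaks and 0.829 with the full lists. Against several genes it was 0 in the stronger 1956 peaks, 0.936 with a reciprocal overlap of 50% and 0 with the full lists, and against no window 5.26, 1.23 and 1.34 in that order, all short of the threshold. An odds ratio of 0 here arises where every peak of the class compared was in both lists, and does not mean that members were absent. Both full lists held 734 of 737 members and all 784 peaks of several genes. TGACTCA at summits, past the threshold in no setting, had a ratio of 0.727 with windows of 500 bp and 0.667 within 50 bp.

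GAGAGA against proximal peaks had odds ratios of 1.08 with a limit of 150 bp, 1.25 in the stronger 1956 peaks, 1.17 within 50 bp, and 1.24 and 1.33 without replicate 1 and replicate 2. The number of sequences past the threshold against proximal peaks was 0 with a limit of 150 bp (Fisher's exact test, 1 at an unadjusted p under 0.05), 1 within 50 bp, and 1 and 4 without replicate 1 and replicate 2. Within 50 bp it was 2 against several genes and 1 against no window, where a limit of 300 bp gave 3. Sequences higher than in flanks numbered 3 with windows of 500 bp. The causes were not tested, but windows of 500 bp and the stronger 1956 peaks leave fewer members. GAGAGA against flanks kept its call, with ratios from 3.11 to 5.31, as did TAATTA, from 0.119 to 0.461.

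The lists hold no read counts, so nothing can be said of depth. There were 2 replicates with 1 control, no list of an untagged strain or of another factor was analysed here, and presence of a peak says nothing of expression.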

Other observations

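Starts of noncoding genes lay near some members. A noncoding 5′ end stood within 200 bp of the summit of 124 members (16.8%), whose median signal was 71.1, against 57.05 for the other 613. By type, genes annotated as ncRNA stood near 12.6% of members and 6.59% of proximal peaks, small nucleolar RNA genes near 2.44% and 1.01%, and tRNA genes near 2.31% and 1.52%, without a test. The 18 members near a small nucleolar RNA gene had a median signal of 91.6 and all 18 were in both top lists. The 17 near a tRNA gene had a median of 45.7. Members near small nuclear RNA genes, which encode spliceosomal RNAs, numbered 5 (median 115.1), among them those upstream of egg-5 and snr-4. Upstream sequence was richer in G and C near noncoding 5′ ends (median 48.5% against 42.8%), and its part in the signal was not tested.

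A longer sequence that overlaps the GA hexamer by 4 letters, GAGACGCAG (reverse complement CTGCGTCTC), was chosen after the frequent 6-letter sequences at members had been seen, so it is given without a test. It stood on either strand within 100 bp of the summit at 134 members (18.2%), in 1.49% of their flanks and in 1.47% of the upstream windows. Proximal peaks held it at 17.1%, peaks in no window at 18.9%, peaks of several genes at 8.93% and peaks on X at 9.59%. The share at members was thus near that of proximal peaks and of peaks in no window. Weaker pooled peaks of the same rule held it at 5.06%. Of the 25 strongest members 1 held it (4%). Members with GAGAGA held it at 26.5% and those without at 10.3%.

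Another sequence found after the data were seen, AGTGTNCG on either strand, stood at 28 members (3.80%), beside 4.39% of proximal peaks, 4.27% of peaks in no window, 2.55% of peaks of several genes and 5.01% of peaks on X. Among members it was at 8.11% of the 185 strongest and at 4.35%, 1.63% and 1.09% of the next groups of 184, beside 1.90% of the flanks and 1.03% of the upstream windows. Of the 25 strongest members 4 held it (16%), and of the 20 at ribosomal protein genes 3 (15%). These are descriptions without a test.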
